A study of Mus musculus with 100 samples.

Results

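The change from embryonic day 8.5 (E8.5) to E9.5 in control mouse embryos was measured in 6 whole-embryo RNA libraries, the 3 titled as control embryos at E9.5 and the 3 titled as control embryos at E8.5, out of the 100 samples of the series. The libraries were taken by their titles and table names. The series is about MLL3 and MLL4, enzymes that methylate histone H3 at lysine 4 and whose genes are Kmt2c and Kmt2d. Control embryos are labelled Mll3flox/KI;Mll4flox/+;Sox2-Cre: they carry a floxed and a KI allele of Mll3, a floxed and a wild-type allele of Mll4, and the Sox2-Cre transgene. The KI embryos used for comparison, 3 libraries at each stage, are labelled Mll3flox/KI;Mll4flox/KI;Sox2-Cre and differ from the controls in having a KI allele in place of the wild-type Mll4 allele. All 4 groups therefore carry Sox2-Cre, the same Mll3 genotype and a floxed Mll4 allele, so that the controls are not wild-type embryos. Sox2-Cre recombines floxed alleles in the epiblast, which forms the embryo proper, and leaves the visceral endoderm and trophoblast lineages largely unrecombined. KI is not spelled out in the labels, which also give neither somite numbers nor whether a library is 1 embryo or a pool.

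Over this day the mouse embryo turns, closes most of its neural tube, makes its earliest neurons, lengthens its trunk from the tail bud, shapes its pharyngeal arches and forelimb buds, loops its heart and fills its vessels with primitive red cells formed in the yolk sac. Hox genes, which pattern the trunk from head to tail, are switched on in the order of their position in each of the Hox clusters, from the 3′ end to the 5′ end. The shift out of the early embryonic state is also marked by falling Lin28 proteins, which block maturation of let-7 microRNAs, and by a move away from the strongly glycolytic metabolism of the early embryo.

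Gene-level reads ran from 20093162 to 26947891 per control library. The leading principal component of the 6 control libraries held 58.5% of the variance and separated the stages. At each stage library 2 held reads of Y-linked genes and almost none of Xist, and the other libraries the reverse, so that the sexes were balanced between the stages. E9.5 libraries 1 and 2 share the first number of their titles and were the most alike pair (chi-square per degree of freedom 7.97, against 21.5 and 26.4 for each with library 3). E9.5 library 3 had the highest level of red cell genes, and E8.5 library 1 the highest level of yolk sac genes. Both stood apart in other gene lists as well. E8.5 library 1 was the highest of its group for 19 of 24 tail bud, 14 of 18 FGF and 9 of 11 Lin28 genes. E9.5 library 3 was the highest of its group for 19 of 24 tail bud and 27 of 38 Hox genes. It was the lowest for 18 of 20 pan-neuronal and 14 of 16 axon genes. Defining markers of neurons (Tubb3), cardiomyocytes (Myh6), red cells (Hbb-bh1), endothelium (Cdh5) and neural crest (Sox10) were detected in all 6 libraries. Some other markers were not. Dcx, of neurons, had no reads in E8.5 library 2, and Myog, of skeletal muscle, had none in E8.5 library 1. C1qa, of macrophages, had no reads in any E8.5 library. Since these are bulk samples of a growing embryo, fewer cells of a type and less RNA per cell cannot be told apart.

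Of 15436 genes tested with the quasi-likelihood test of edgeR, 3738 (24.2%) had a Benjamini-Hochberg adjusted p under 0.05 and are termed called, 1877 (12.2%) higher and 1861 (12.1%) lower at E9.5. With library totals as the only scaling the split was 2370 higher and 1289 lower, and the fitted median of all genes moved from -0.02 to 0.05 on the log2 scale. The shares of 12.2% and 12.1% are the background for all counts of gene list members given below. Counts near these shares are no result about a list. Called changes of at least 2-fold were found in 1037 genes (6.72%), 684 with a rise (4.43%) and 353 with a fall (2.29%). In 96.3% of the called genes the stages did not overlap, so that a lack of overlap adds little to the call of a gene. Levels are given as TMM-scaled counts relative to library size (CPM) in libraries 1, 2 and 3 of each stage, in that order, and fold changes as the fitted log2 difference, E9.5 minus E8.5, with its standard error. Libraries of a group are named as separate samples in the labels, but their origin in separate litters is not stated. The p-values therefore measure a spread between libraries. That spread is taken within all 4 groups of the fit, KI libraries included, and its estimate borrows from other genes.

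**Figure D1:**
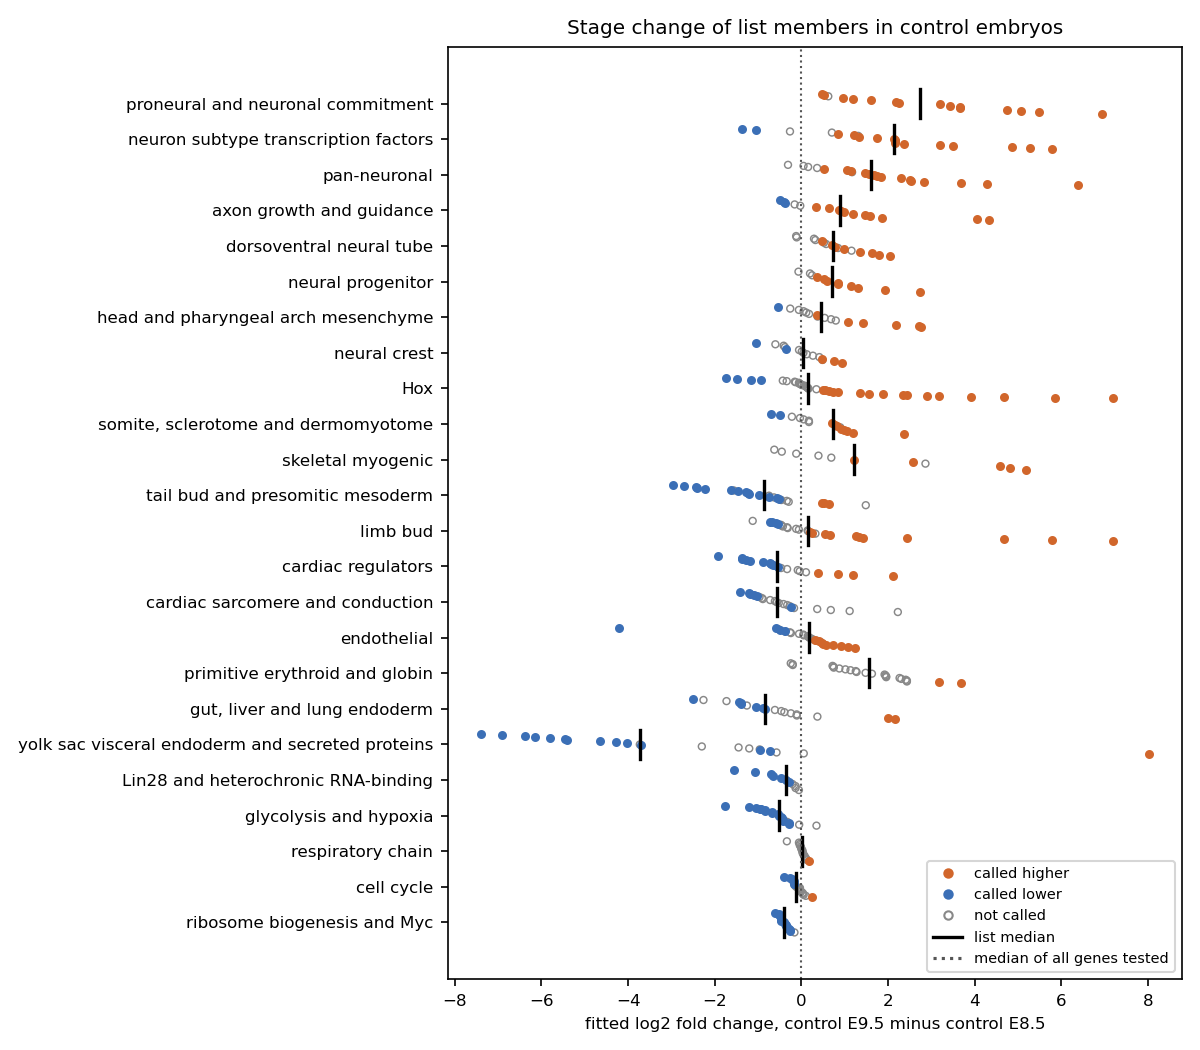
Fitted log2 fold change (control E9.5 minus control E8.5, x axis) of the members of 24 gene lists (y axis), 1 point per gene tested; filled points were called higher (orange) or lower (blue), open points were not called, black bars are list medians and the dotted line is the median of all 15436 genes. Neuronal lists lie to the right (median 2.73 for the proneural list) and yolk sac genes to the left (median -3.73); fitted values of genes with 0 reads at a stage depend on the prior count and are no measure of size.

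The 12 largest called rises, among genes with a mean of at least 5 CPM at E9.5 and no overlap between the stages, were 6 neurogenic genes (Neurod1, Neurod4, Nhlh1, Nhlh2, Dcx and the microRNA host Mir124a-1hg), the Hox genes Hoxd11 and Hoxd12, the LIM homeobox gene Lhx9, the ephrin receptor gene Epha3, the embryonic myosin gene Myh3 and Itih2, which encodes a hyaluronan-binding serum protein chain. Hoxd12 stood at 0, 0.0770 and 0 CPM at E8.5 and 3.91, 5.87 and 5.53 CPM at E9.5. These are 2 reads at E8.5 against 389 at E9.5, a ratio of 170 with an exact 95% counting interval from 46.6 to 1406. Itih2 stood at 0.100, 0 and 0.391 CPM at E8.5 and 4.26, 7.49 and 8.52 CPM at E9.5 (log2 fold change 5.42 ± 0.90, adjusted p = 0.00195), with library 1 lowest at E9.5. Mir124a-1hg, the host transcript of the neuronal microRNA miR-124, stood at 0.100, 0.231 and 0.0977 CPM at E8.5 and 5.55, 7.41 and 5.75 CPM at E9.5 (log2 fold change 5.34 ± 0.52, adjusted p = 5.65e-07).

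The 12 largest called falls, chosen in the same way, were 8 genes of yolk sac endoderm or absorptive epithelium (Apoa1, Apoa4, Apob, Apom, Cubn, Amn, Ttr and Spink1), the threonine dehydrogenase gene Tdh, the imprinted gene Phlda2, the blood and vessel regulator Etv2 and Nxf7, an RNA export factor family gene. Etv2, a transcription factor needed to form blood and endothelium, stood at 13.1, 19.5 and 15.4 CPM at E8.5 and 0.977, 0.756 and 0.834 CPM at E9.5 (log2 fold change -4.22 ± 0.24, adjusted p = 9.16e-10). Phlda2, which restrains placental growth, stood at 39.6, 69.6 and 36.4 CPM at E8.5 and 2.27, 1.80 and 3.78 CPM at E9.5 (log2 fold change -4.24 ± 0.33, adjusted p = 2.25e-05). The stages of the 12 do not overlap because the choice of genes required it. Nxf7 stood at 4.91, 12.9 and 5.67 CPM at E8.5 and 0, 0.540 and 0.790 CPM at E9.5 (log2 fold change -4.15 ± 0.69, adjusted p = 0.00193), with library 2 highest at E8.5. Tdh stood at 12.8, 3.15 and 9.04 CPM at E8.5 and 0.469, 0.540 and 0.0878 CPM at E9.5 (log2 fold change -4.45 ± 1.11, adjusted p = 0.0206), with the same order of E8.5 libraries as the yolk sac genes, library 1 highest and library 2 lowest. The call of Tdh was lost without E8.5 library 1 (adjusted p = 0.0541) and without E9.5 library 1, 2 or 3 (adjusted p = 0.066, 0.0665 and 0.0599). Those of Apoa1, Apoa4, Apob, Apom, Cubn and Amn were lost when any library other than E8.5 library 2 was left out (adjusted p from 0.0626 to 0.157), and that of Ttr without E8.5 library 1 or any E9.5 library (adjusted p from 0.0739 to 0.0873). With limma and an estimated correlation within the first title numbers, Tdh (adjusted p = 0.148), Spink1 (adjusted p = 0.122) and the other 7 yolk sac or absorptive genes (adjusted p from 0.183 to 0.465) were not called. Apoa4 and Amn were not called with no filter on low counts either (adjusted p = 0.0626 and 0.0571), nor was Apoa4 with library totals only (adjusted p = 0.0508).

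Genes of neurogenesis, the making of neurons from progenitors of the neural tube, rose. Of 16 genes of proneural and neuronal commitment, 15 rose and 0 fell, where 12.2% of all genes tested rose and 12.1% fell. The median log2 fold change of the 16 was 2.73, against -0.02 for all genes. The gene lists were chosen with earlier results of these data known, so that such contrasts describe the lists and are no test of them. Of 20 pan-neuronal genes 15 rose and 0 fell (median 1.61), and of 12 neural progenitor genes 9 rose and 0 fell (median 0.71). Proneural factors commit progenitors to become neurons. Neurog2 stood at 5.26, 6.81 and 7.67 CPM at E8.5 and 32.5, 31.9 and 25.9 CPM at E9.5 (log2 fold change 2.19 ± 0.24, adjusted p = 1.21e-05). Neurog1 stood at 1.50, 0.577 and 3.66 CPM at E8.5 and 15.5, 19.2 and 17.5 CPM at E9.5 (log2 fold change 3.21 ± 0.43, adjusted p = 0.000168), with library 3 highest at E8.5. For both genes the lowest E9.5 value was above the highest E8.5 value.

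Several genes that act after the proneural step, in newly born neurons, were measured next. Neurod1, a differentiation factor, stood at 0.100, 0 and 0.195 CPM at E8.5 and 11.8, 14.5 and 9.22 CPM at E9.5 (log2 fold change 6.94 ± 0.67, adjusted p = 5.91e-06). Nhlh1 stood at 0.701, 0.385 and 0.489 CPM at E8.5 and 15.3, 14.1 and 12.6 CPM at E9.5 (log2 fold change 4.75 ± 0.36, adjusted p = 2.08e-08). Nhlh2, its close relative, stood at 0.351, 0.0770 and 0.244 CPM at E8.5 and 7.97, 11.9 and 9.66 CPM at E9.5 (log2 fold change 5.49 ± 0.46, adjusted p = 1.06e-07). At E8.5 no library reached 1 CPM for any of these 3 genes, and at E9.5 all 3 libraries passed 5 CPM. Insm1, a zinc finger factor of neuronal birth, stood at 2.61, 1.31 and 3.62 CPM at E8.5 and 30.3, 36.5 and 26.6 CPM at E9.5 (log2 fold change 3.65 ± 0.29, adjusted p = 3.66e-07). The Notch ligand gene Dll1, shared with the presomitic mesoderm, rose less (log2 fold change 0.52 ± 0.09, adjusted p = 0.000362).

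Among structural genes of neurons, Tubb3, which encodes neuronal beta-tubulin, stood at 20.6, 25.8 and 19.9 CPM at E8.5 and 129, 155 and 102 CPM at E9.5 (log2 fold change 2.54 ± 0.14, adjusted p = 1.84e-08). Dcx, a microtubule-binding protein gene of migrating neurons, stood at 0.200, 0 and 0.195 CPM at E8.5 and 12, 14 and 5.84 CPM at E9.5 (log2 fold change 6.38 ± 0.62, adjusted p = 2.59e-06), with library 3 lowest at E9.5. Elavl3, an RNA-binding protein gene, stood at 2.10, 3.00 and 3.23 CPM at E8.5 and 35.2, 40.1 and 31.3 CPM at E9.5 (log2 fold change 3.67 ± 0.21, adjusted p = 9.46e-10). Nefm, a neurofilament gene, stood at 18, 19.5 and 14.5 CPM at E8.5 and 82.9, 106 and 65.6 CPM at E9.5 (log2 fold change 2.29 ± 0.15, adjusted p = 1.99e-08). The E9.5 values of these 4 genes all exceeded the E8.5 values, and E9.5 library 3 was the lowest of its group for each. Stmn2, a gene of growing axons, was not called (22.5, 20.9 and 16.6 CPM at E8.5 and 21.8, 23.2 and 17 CPM at E9.5; log2 fold change 0.05 ± 0.18, adjusted p = 0.875), nor were Crmp1 (log2 fold change 0.15) and Rbfox3 (log2 fold change 0.36).

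**Figure D2:**
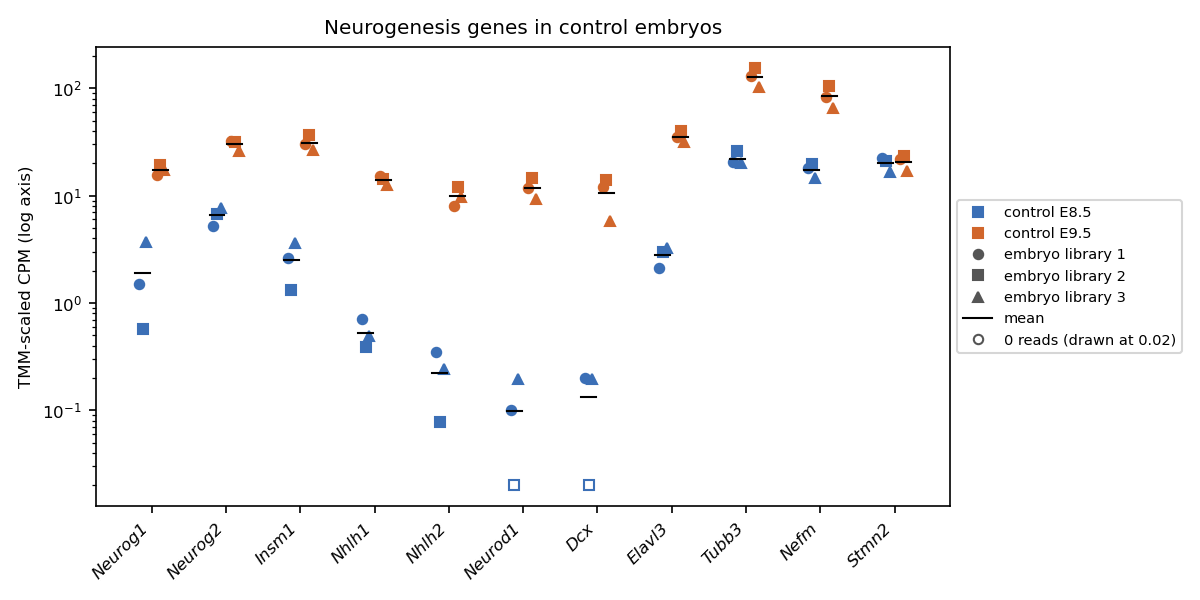
TMM-scaled CPM (log y axis) of 11 neurogenesis genes (x axis) in the 3 control libraries of E8.5 (blue) and E9.5 (orange), with bars at group means; open symbols at 0.02 are libraries with 0 reads. The stages do not overlap for 10 of the genes, from Neurog1 to Nefm, and overlap for Stmn2. Every E9.5 value was above every E8.5 value for 19% of all genes tested. The 10 were all called, and the stages did not overlap for 96.3% of called genes. Neurod1, Nhlh1, Nhlh2 and Dcx are among the largest rises, whose choice required it.

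Progenitor genes were expressed at both stages and moved less. Nes, an intermediate filament gene of neural progenitors, stood at 126, 158 and 162 CPM at E8.5 and 356, 357 and 270.0 CPM at E9.5 (log2 fold change 1.14 ± 0.11, adjusted p = 1.54e-05). Sox2, a neural progenitor factor, stood at 151, 157 and 153 CPM at E8.5 and 248, 239.8 and 202 CPM at E9.5 (log2 fold change 0.58 ± 0.09, adjusted p = 0.000227). Fabp7, a lipid-binding protein gene of radial glia, had the largest rise of the list (2.25, 5.54 and 3.81 CPM at E8.5 and 26.9, 29.1 and 23 CPM at E9.5; log2 fold change 2.75 ± 0.25, adjusted p = 2.39e-06), and Ptn the smallest value (log2 fold change -0.07 ± 0.08, adjusted p = 0.599). Sox1 (log2 fold change 0.25) and Pax6 (log2 fold change 0.20), further progenitor factors, were not called.

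Transcription factors that name neuron subtypes followed. Of 20 listed 19 were tested, of which 14 rose and 2 fell (median 2.14). Lhx9, a factor of dorsal interneurons that is also expressed in the limb bud, stood at 0.200, 0.385 and 0.147 CPM at E8.5 and 10.8, 15.3 and 16.5 CPM at E9.5 (log2 fold change 5.78 ± 0.51, adjusted p = 9.42e-07). Lhx3, a motor neuron and pituitary factor, stood at 0, 0.154 and 0.147 CPM at E8.5 and 4.45, 4.35 and 3.82 CPM at E9.5 (log2 fold change 5.27 ± 0.65, adjusted p = 8.5e-06). Tlx3, a factor of sensory interneurons, stood at 0.200, 0.154 and 0 CPM at E8.5 and 3.24, 4.75 and 2.90 CPM at E9.5 (log2 fold change 4.86 ± 0.62, adjusted p = 1.33e-05). None of the 3 reached 1 CPM in any E8.5 library. The 2 that fell are also expressed outside neurons: Lhx1, a gene of the intermediate mesoderm and node, stood at 9.37, 11.1 and 8.31 CPM at E8.5 and 3.24, 3.49 and 4.35 CPM at E9.5 (log2 fold change -1.38 ± 0.22, adjusted p = 0.000109). Mnx1, a motor neuron and notochord factor, stood at 6.96, 4.54 and 3.57 CPM at E8.5 and 1.99, 2.27 and 3.07 CPM at E9.5 (log2 fold change -1.04 ± 0.29, adjusted p = 0.0137). The call of Mnx1 was lost without E8.5 library 1 (adjusted p = 0.0907) and without E9.5 library 1 or 2 (adjusted p = 0.0588 and 0.0514).

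Among 16 axon growth and guidance genes 11 rose and 3 fell (median 0.89), and 1 fell with library totals as the only scaling. Epha3, which encodes a receptor for ephrins on growing axons and mesenchyme, rose most (1.20, 0.154 and 0.586 CPM at E8.5 and 12.4, 15.9 and 9.39 CPM at E9.5; log2 fold change 4.33 ± 0.46, adjusted p = 1.05e-05). Cntn2, an adhesion protein gene of early axons, came next (1.80, 1.46 and 0.684 CPM at E8.5 and 20.4, 31.1 and 14.4 CPM at E9.5; log2 fold change 4.05 ± 0.34, adjusted p = 2.83e-07). For both genes E9.5 library 2 was highest and library 3 lowest of its group, and no E8.5 value came near. Robo2, a Slit receptor gene, had the lowest log2 value (log2 fold change -0.51 ± 0.13, adjusted p = 0.00816).

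Patterning genes of the neural tube were mixed. In the dorsoventral list 8 of 16 rose and 0 fell (median 0.73). Dbx1, which marks an intermediate progenitor domain, stood at 5.46, 5.85 and 10.9 CPM at E8.5 and 34.1, 33.3 and 23.4 CPM at E9.5 (log2 fold change 2.03 ± 0.37, adjusted p = 0.00279). Olig2, which marks motor neuron progenitors, stood at 7.72, 5.39 and 9.09 CPM at E8.5 and 28.2, 26.1 and 22.2 CPM at E9.5 (log2 fold change 1.79 ± 0.19, adjusted p = 1.44e-06). Both were higher in every E9.5 library than in any at E8.5. Shh, the ventral signal itself, was not called and its groups overlapped (37.7, 25.4 and 16.6 CPM at E8.5 and 35.7, 33.6 and 30.3 CPM at E9.5; log2 fold change 0.32 ± 0.29, adjusted p = 0.48). In the list of brain regional genes 6 of 18 rose and 4 fell (median 0.12, and 0.02 and 0.25 without E9.5 library 1 and 2). Nkx2-1, a ventral forebrain, thyroid and lung factor, rose (2.51, 2.81 and 2.64 CPM at E8.5 and 11.2, 10.9 and 9.74 CPM at E9.5; log2 fold change 2.00 ± 0.31, adjusted p = 8.88e-05), as did Lhx2, an eye and forebrain factor (19, 16.1 and 17.5 CPM at E8.5 and 49, 48.9 and 41.1 CPM at E9.5; log2 fold change 1.40 ± 0.13, adjusted p = 2.35e-07). Egr2, which marks rhombomeres of the hindbrain, fell (12.1, 8.16 and 8.94 CPM at E8.5 and 3.05, 3.02 and 2.02 CPM at E9.5; log2 fold change -1.84 ± 0.30, adjusted p = 0.000217). En1, a midbrain and hindbrain factor, also fell (33.3, 24.8 and 24.5 CPM at E8.5 and 18.1, 17.7 and 15.6 CPM at E9.5; log2 fold change -0.68 ± 0.13, adjusted p = 0.00095), while Otx2, a forebrain and midbrain factor, was not called (log2 fold change 0.32 ± 0.13, adjusted p = 0.075) but was called higher with library totals only and with only the 6 control libraries (adjusted p = 0.0348 in each).

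Of 16 neural crest genes 15 were tested, of which 3 rose and 2 fell (median 0.05, and from -0.04 without E9.5 library 2 to 0.13 without E9.5 library 3). Over all genes tested 12.2% rose and 12.1% fell. Sox10, a factor of migrating crest, was not called (52.1, 66 and 69.4 CPM at E8.5 and 46.3, 46.1 and 31 CPM at E9.5; log2 fold change -0.60 ± 0.25, adjusted p = 0.121), and was called lower with only the 6 control libraries in the fit (adjusted p = 0.0446). Ednrb, an endothelin receptor gene of crest-derived cells, rose (16.2, 18.8 and 15 CPM at E8.5 and 31.5, 34.7 and 29.6 CPM at E9.5; log2 fold change 0.94 ± 0.14, adjusted p = 8.27e-05), and Ret, the GDNF receptor gene of enteric crest and the nephric duct, fell (27, 28.3 and 30.3 CPM at E8.5 and 14, 12.9 and 14.5 CPM at E9.5; log2 fold change -1.05 ± 0.11, adjusted p = 1.87e-06). Of 16 genes of head and pharyngeal arch mesenchyme 6 rose and 1 fell (median 0.45). Dlx1, an arch and forebrain factor, had the largest rise (0.601, 2.12 and 1.95 CPM at E8.5 and 13, 13.3 and 5.93 CPM at E9.5; log2 fold change 2.76 ± 0.46, adjusted p = 0.00109). Barx1, a jaw and stomach mesenchyme factor, stood at 0.902, 3.62 and 5.96 CPM at E8.5 and 22.9, 28.9 and 17.6 CPM at E9.5 (log2 fold change 2.72 ± 0.50, adjusted p = 0.00419). For both genes E8.5 library 1 and E9.5 library 3 were the lowest of their groups, and the stages did not overlap. Hand2, an arch, limb and heart factor, was the member that fell (66.3, 77.8 and 72.5 CPM at E8.5 and 51.6, 43.8 and 53.1 CPM at E9.5; log2 fold change -0.55 ± 0.08, adjusted p = 9.64e-05), and Twist1, a mesenchyme factor, rose by a small margin (log2 fold change 0.35 ± 0.11, adjusted p = 0.0435). The call of Twist1 was lost when any library other than E8.5 library 2 was left out (adjusted p from 0.0567 to 0.14). It was also lost with only the 6 control libraries (adjusted p = 0.131) and with no filter on low counts (adjusted p = 0.0505).

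Hox genes changed by their position in the clusters. Of 39 Hox genes 38 were tested, of which 16 rose and 4 fell (median 0.16). Of 8 genes of paralogue groups 1 to 3, 0 rose and 3 fell (median -0.07). Of 19 genes of groups 4 to 9, 6 rose and 1 fell (median 0.09). Of 11 genes of groups 10 to 13, 10 rose and 0 fell (median 2.90), the exception being Hoxa13 (1.35, 1.54 and 0.147 CPM at E8.5 and 1.91, 1.37 and 1.32 CPM at E9.5; log2 fold change 0.58 ± 0.47, adjusted p = 0.41).

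At the 3′ end, Hoxd1 stood at 36.1, 34.6 and 30.3 CPM at E8.5 and 10.1, 9.61 and 10.5 CPM at E9.5 (log2 fold change -1.74 ± 0.12, adjusted p = 8.41e-09). Hoxb1 stood at 46.6, 44.1 and 37.5 CPM at E8.5 and 20.7, 20.1 and 26.9 CPM at E9.5 (log2 fold change -0.92 ± 0.13, adjusted p = 4.17e-05). Group 1 genes act early in the hindbrain, and for both the highest E9.5 value was below the lowest E8.5 value. In groups 2 and 3 the log2 values included 0.00 for Hoxb2, 0.15 for Hoxb3 and 0.16 for Hoxd3, none of them called; Hoxb3 was called higher with library totals only (adjusted p = 0.0324).

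In the middle of the clusters, where genes pattern the neck and chest, 6 genes rose. They were Hoxa4 (log2 fold change 0.74), Hoxa5 (0.65), Hoxb5 (0.55), Hoxc5 (0.85), Hoxa6 (1.35) and Hoxd9 (0.50), with adjusted p from 0.000724 to 0.0148. The call of Hoxa5 was lost without E8.5 library 1 or 3 (adjusted p = 0.054 and 0.0518), and that of Hoxd9 without E8.5 library 1 or 2 or E9.5 library 3 (adjusted p = 0.0626, 0.0702 and 0.107). Hoxc8 was the only gene of this range that fell (58.1, 50.4 and 43.3 CPM at E8.5 and 19.3, 17.6 and 31 CPM at E9.5; log2 fold change -1.16 ± 0.19, adjusted p = 0.00099), with E9.5 library 3 highest of its group. Without that library Hoxa7 and Hoxb7 were called lower as well (adjusted p = 0.0158 and 0.00775). The remaining members of groups 4 to 9 were not called, with log2 values of 0.11 for Hoxb4, -0.15 for Hoxc4, 0.13 for Hoxd4, 0.09 for Hoxb6, 0.05 for Hoxc6, -0.43 for Hoxa7, -0.34 for Hoxb7, -0.05 for Hoxb8, 0.35 for Hoxd8 (called higher with library totals only, adjusted p = 0.0424), -0.06 for Hoxa9, -0.04 for Hoxb9 and -0.01 for Hoxc9.

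At the 5′ end, the D cluster genes that pattern the limb and the caudal trunk rose. Hoxd10 stood at 1.00, 2.81 and 1.86 CPM at E8.5 and 12.9, 12.2 and 18 CPM at E9.5 (log2 fold change 2.90 ± 0.28, adjusted p = 5.85e-07). Hoxd11 stood at 0.501, 1.19 and 0.684 CPM at E8.5 and 15.7, 22.6 and 24.4 CPM at E9.5 (log2 fold change 4.68 ± 0.39, adjusted p = 7.82e-07). Hoxd13 stood at 1.80, 2.62 and 2.00 CPM at E8.5 and 10.5, 12.6 and 11.9 CPM at E9.5 (log2 fold change 2.43 ± 0.28, adjusted p = 3.69e-06). All 3 were under 3 CPM in every E8.5 library and above 10 CPM in every E9.5 library. In the A cluster Hoxa10 stood at 3.61, 10.1 and 6.30 CPM at E8.5 and 16.7, 17.3 and 25.4 CPM at E9.5 (log2 fold change 1.55 ± 0.31, adjusted p = 0.004). Hoxa11 stood at 1.85, 7.16 and 4.06 CPM at E8.5 and 13.3, 14.6 and 20.7 CPM at E9.5 (log2 fold change 1.87 ± 0.36, adjusted p = 0.00347). E8.5 library 1 was the lowest and E9.5 library 3 the highest for both A cluster genes. In the C cluster Hoxc10 stood at 3.06, 7.73 and 5.81 CPM at E8.5 and 25.3, 19.8 and 40.8 CPM at E9.5 (log2 fold change 2.35 ± 0.39, adjusted p = 0.00233). Hoxc11 stood at 0.200, 0.269 and 0.0977 CPM at E8.5 and 2.34, 2.27 and 4.43 CPM at E9.5 (log2 fold change 3.92 ± 0.49, adjusted p = 1.05e-05). Hoxc13 stood at 0.100, 0.154 and 0.195 CPM at E8.5 and 1.41, 1.15 and 1.67 CPM at E9.5 (log2 fold change 3.18 ± 0.64, adjusted p = 0.00119). The C cluster genes were also highest in E9.5 library 3. Hoxc12 had 2 reads at E8.5 and 158 at E9.5, a ratio of 68.9 with an exact 95% counting interval from 18.8 to 574. Hoxb13, the only B cluster gene of these groups, was too low to be tested.

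**Figure D3:**
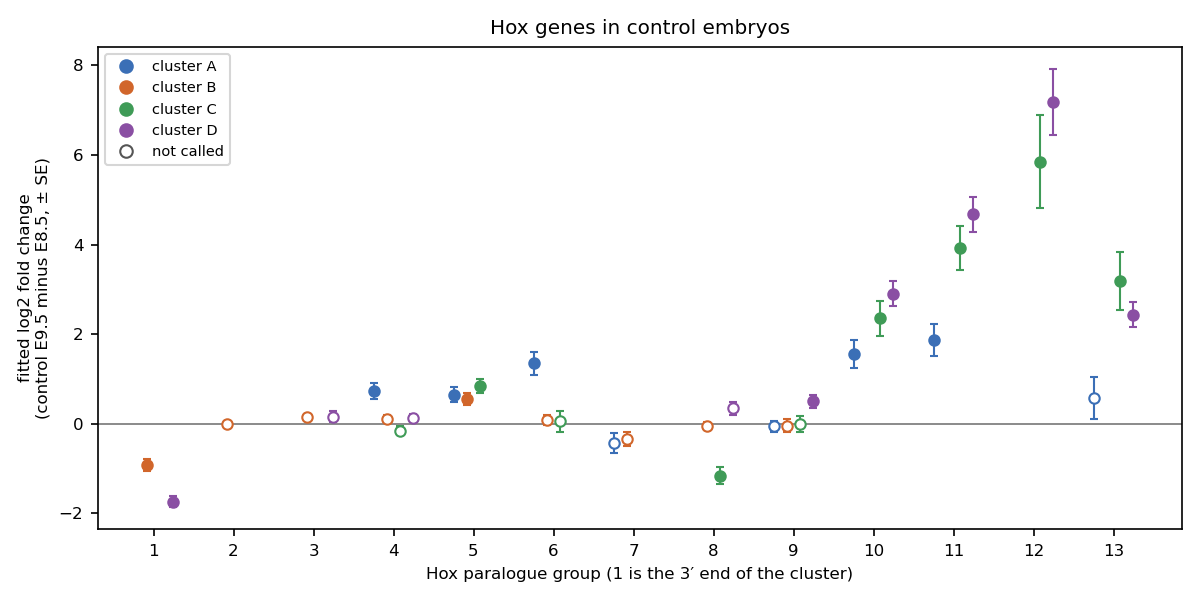
Fitted log2 fold change with its standard error (y axis, control E9.5 minus E8.5) of 35 of the 38 Hox genes tested, by paralogue group (x axis), coloured by cluster; open symbols were not called. Hoxb1 and Hoxd1 lie below 0 and 10 of 11 genes of groups 10 to 13 were called higher, up to Hoxd12, whose fitted value rests on 2 reads at E8.5 and is no measure of size.

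Tail bud and presomitic mesoderm genes, which feed the lengthening trunk, fell more often than they rose: 14 of 24 fell and 3 rose (median -0.87). The caudal homeobox genes, which sustain axial progenitors, fell several-fold. Cdx4 stood at 76, 58.1 and 46.4 CPM at E8.5 and 7.62, 5.69 and 9.74 CPM at E9.5 (log2 fold change -2.98 ± 0.24, adjusted p = 9.23e-06). Cdx1 stood at 46.3, 30.8 and 25.7 CPM at E8.5 and 6.25, 4.57 and 4.96 CPM at E9.5 (log2 fold change -2.70 ± 0.30, adjusted p = 0.00012). Cdx2 stood at 120.4, 90.7 and 77.8 CPM at E8.5 and 14.2, 10.3 and 30.0 CPM at E9.5 (log2 fold change -2.42 ± 0.41, adjusted p = 0.00336). E8.5 library 1 was the highest for all 3, and no E9.5 value reached the E8.5 range. Evx1, a homeobox gene of the posterior embryo, stood at 46.5, 39.3 and 35 CPM at E8.5 and 6.68, 8.10 and 11 CPM at E9.5 (log2 fold change -2.23 ± 0.20, adjusted p = 3.85e-06). Nkx1-2, a marker of the caudal epiblast, stood at 52.9, 33 and 27.4 CPM at E8.5 and 8.01, 4.86 and 8.08 CPM at E9.5 (log2 fold change -2.44 ± 0.40, adjusted p = 0.00236). The stages did not overlap for these genes either. T, the Brachyury factor gene of mesoderm and notochord, had a mean of 57.3 CPM at E8.5 and 23.5 CPM at E9.5 (log2 fold change -1.29 ± 0.32, adjusted p = 0.021); its call was lost without E8.5 library 1 or 2 (adjusted p = 0.0653 and 0.0517) or E9.5 library 1 or 2 (adjusted p = 0.0715 and 0.0677), and with only the 6 control libraries (adjusted p = 0.0558). Cyp26a1, which clears retinoic acid from the tail, stood at 50.0, 48 and 35.8 CPM at E8.5 and 16.4, 20.0 and 20.6 CPM at E9.5 (log2 fold change -1.23 ± 0.20, adjusted p = 0.000795). The 3 members that rose were Lfng (log2 fold change 0.64 ± 0.11, adjusted p = 0.000188), Dll1 and Dll3, Notch pathway genes that are also part of neurogenesis. The call of Dll3 was lost when any library other than E8.5 library 1 was left out (adjusted p from 0.0581 to 0.18). It was also lost with summed transcripts (adjusted p = 0.0507) and with TMM factors from all but the 100 most abundant genes (adjusted p = 0.0502). Mesp2, a gene of the next somite to form, was not called (1.40, 0.385 and 0.782 CPM at E8.5 and 0.234, 2.52 and 4.39 CPM at E9.5; log2 fold change 1.48 ± 0.76, adjusted p = 0.177), and was called higher without E9.5 library 1 (adjusted p = 0.0219).

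Of 16 genes of the somite and its derivatives 8 rose and 2 fell (median 0.73). Pax1, a sclerotome factor, stood at 8.47, 9.73 and 12.4 CPM at E8.5 and 21.9, 21.6 and 17.3 CPM at E9.5 (log2 fold change 0.99 ± 0.20, adjusted p = 0.000928). Uncx, of the caudal part of each somite, stood at 10.4, 10.8 and 15.1 CPM at E8.5 and 26.8, 24.3 and 23.8 CPM at E9.5 (log2 fold change 1.05 ± 0.20, adjusted p = 0.000647). Lbx1, a factor of migrating muscle precursors and dorsal interneurons, rose most (0.200, 0.500 and 0.733 CPM at E8.5 and 2.70, 2.34 and 2.41 CPM at E9.5; log2 fold change 2.36 ± 0.44, adjusted p = 0.000589). The count called lower was 0 without E8.5 library 1 or E9.5 library 1, and 1 without E8.5 library 3.

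Of 17 skeletal muscle genes 11 passed the filter on low counts and 5 of these rose. A muscle gene near 0 at E8.5 could pass only through its E9.5 level. Myog, the myogenin gene of differentiating muscle, stood at 0, 0.0770 and 0.293 CPM at E8.5 and 2.38, 3.46 and 3.29 CPM at E9.5 (log2 fold change 4.59 ± 0.78, adjusted p = 0.000223). Myf5, the earliest myogenic factor gene, stood at 0.301, 0.616 and 0.391 CPM at E8.5 and 3.28, 1.80 and 2.90 CPM at E9.5 (log2 fold change 2.57 ± 0.55, adjusted p = 0.0019). Myh3 stood at 0.351, 0.154 and 0.293 CPM at E8.5 and 8.09, 9.93 and 4.21 CPM at E9.5 (log2 fold change 4.81 ± 0.44, adjusted p = 2.71e-07). All 3 were under 1 CPM in every E8.5 library and above 1 CPM in every E9.5 library. The number of muscle genes called higher was 3 without E8.5 library 1 or 2.

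Signals that act on these tissues were mixed. Of 18 retinoic acid genes 4 rose and 5 fell (median -0.10, and 0.01 without E8.5 library 2). Aldh1a2, the main enzyme of retinoic acid synthesis in the trunk, fell (139, 103 and 108 CPM at E8.5 and 51.9, 53.3 and 55.7 CPM at E9.5; log2 fold change -1.12 ± 0.11, adjusted p = 2.66e-06), while Aldh1a3, the enzyme of the developing face and eye, rose (1.15, 1.00 and 6.45 CPM at E8.5 and 25.5, 31.2 and 20.4 CPM at E9.5; log2 fold change 3.19 ± 0.64, adjusted p = 0.00739) with a high E8.5 library 3. Aldh1a3 was not called with only the 6 control libraries in the fit (adjusted p = 0.0534). Of 18 FGF pathway genes 3 rose and 7 fell (median -0.39). Fgf3, a ligand of the otic region and tail bud, fell (13.2, 11.7 and 7.23 CPM at E8.5 and 2.97, 3.13 and 4.43 CPM at E9.5; log2 fold change -1.61 ± 0.23, adjusted p = 4.71e-05). The transcriptional targets of the pathway Etv4 (log2 fold change -0.79 ± 0.10, adjusted p = 1.93e-05) and Etv5 (log2 fold change -0.71 ± 0.10, adjusted p = 3.56e-05) also fell. Fgfr3, a receptor gene of neural progenitors, rose (35.4, 42.3 and 32.2 CPM at E8.5 and 74.9, 87.2 and 59.8 CPM at E9.5; log2 fold change 1.01 ± 0.15, adjusted p = 0.00034). Of 14 Hedgehog genes 13 were tested, of which 4 rose and 2 fell (median 0.13, from 0.05 without E9.5 library 2 to 0.24 without E9.5 library 3, and also over 1.5 times away without E8.5 library 1 or 3, at 0.22 and 0.09). The coreceptor gene Gas1 rose (132, 133 and 148 CPM at E8.5 and 293, 301 and 245 CPM at E9.5; log2 fold change 1.03 ± 0.09, adjusted p = 1.14e-06), as did the coreceptor genes Boc (log2 fold change 0.75 ± 0.12, adjusted p = 0.000146) and Cdon (log2 fold change 0.68 ± 0.08, adjusted p = 4.15e-06). The target gene Gli1 fell (log2 fold change -0.54 ± 0.12, adjusted p = 0.00296). Without E8.5 library 1 or 2 or E9.5 library 1 or 2, 2 retinoic acid genes were called higher, and without E9.5 library 1, 4 FGF genes were called lower. Without E9.5 library 1 or 2, 1 Hedgehog gene was called lower.

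Of 13 genes of Nodal signalling and left-right asymmetry 12 were tested, of which 3 fell and 2 rose (median -0.20, and -0.54 and -0.07 without E8.5 library 1 and 2). Cfc1, a coreceptor gene for Nodal, had 95 reads at E8.5 and 3 at E9.5, a ratio of 36.3 with an exact 95% counting interval from 12.1 to 179. Foxj1, a factor of motile cilia, rose (log2 fold change 2.23 ± 0.34, adjusted p = 8.67e-05), and 1 member was called higher without E8.5 library 1 or 2 or E9.5 library 1.

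In the organ lists, 11 of 26 limb bud genes rose and 4 fell (median 0.15, and 0.09 without E8.5 library 1 or E9.5 library 1 or 2). Wnt7a, a dorsal limb and neural signal, stood at 6.61, 5.54 and 8.80 CPM at E8.5 and 19.3, 17.8 and 12.9 CPM at E9.5 (log2 fold change 1.26 ± 0.20, adjusted p = 0.000123). Tbx5, which starts the forelimb, was not called (14.5, 17.4 and 14.1 CPM at E8.5 and 10.8, 11.7 and 14.1 CPM at E9.5; log2 fold change -0.33 ± 0.13, adjusted p = 0.0784), and was called lower without E9.5 library 3 (adjusted p = 0.0211). Sall1, a zinc finger factor gene of limb and kidney, fell (log2 fold change -0.72 ± 0.10, adjusted p = 0.000109). Of 13 genes of intermediate mesoderm and kidney 7 fell and 3 rose (median -0.56), and the stages were separated for both extremes. Osr1, an early nephric and cardiac mesoderm factor, had the lowest value (35.8, 31.7 and 32.2 CPM at E8.5 and 6.95, 8.89 and 15.4 CPM at E9.5; log2 fold change -1.68 ± 0.21, adjusted p = 8.07e-05). Wt1, a factor of the urogenital ridge and epicardium, had the highest (1.90, 2.08 and 2.25 CPM at E8.5 and 9.38, 8.78 and 8.65 CPM at E9.5; log2 fold change 2.10 ± 0.27, adjusted p = 1.62e-05). Of 19 eye, ear and placode genes 17 were tested, of which 8 rose and 3 fell (median 0.50, and 0.33 without E8.5 library 2). Eya2, a transcriptional cofactor gene of placodes and muscle, stood at 8.87, 7.04 and 10.3 CPM at E8.5 and 22.6, 24.5 and 21.5 CPM at E9.5 (log2 fold change 1.39 ± 0.16, adjusted p = 3.72e-06). Oc90, an otoconial protein gene of the ear vesicle, had 0 reads in all E8.5 libraries and 128 over the E9.5 libraries, at least 11.8-fold higher against a floor of 3 reads per library. The count of eye, ear and placode genes called higher was 5 when any of E8.5 libraries 1 and 2 or E9.5 libraries 1 and 2 was left out.

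Heart regulators fell more often than they rose. Of 20 cardiac regulators 10 fell and 4 rose (median -0.57). Nkx2-5, an early cardiac factor, stood at 25.2, 23 and 21.3 CPM at E8.5 and 5.47, 7.56 and 5.22 CPM at E9.5 (log2 fold change -1.92 ± 0.20, adjusted p = 5.89e-06). Gata5 stood at 28.3, 31.3 and 26.7 CPM at E8.5 and 10.7, 10.8 and 11.9 CPM at E9.5 (log2 fold change -1.37 ± 0.10, adjusted p = 2.28e-08). Gata4 stood at 47.4, 49.4 and 37 CPM at E8.5 and 21.6, 18.6 and 11.4 CPM at E9.5 (log2 fold change -1.37 ± 0.20, adjusted p = 0.000625). No E9.5 value of these 3 genes reached the lowest E8.5 value. The 4 that rose were Wt1, Tbx2 (log2 fold change 1.19 ± 0.31, adjusted p = 0.0226), Isl1, a factor of the second heart field and of motor neurons (log2 fold change 0.83 ± 0.12, adjusted p = 6.43e-05), and Hey1, a Notch target (log2 fold change 0.39 ± 0.10, adjusted p = 0.0051). The call of Tbx2, a factor of the atrioventricular canal, was lost without E8.5 library 3 (adjusted p = 0.0755) and without E9.5 library 1 or 2 (adjusted p = 0.0542 and 0.0824), and with only the 6 control libraries (adjusted p = 0.106).

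Of 22 genes of the contractile apparatus and conduction 21 were tested, of which 6 fell and 0 rose (median -0.57, and -0.23 without E8.5 library 2). Myh6, the atrial myosin gene, stood at 239, 313 and 222 CPM at E8.5 and 131, 129 and 100.5 CPM at E9.5 (log2 fold change -1.11 ± 0.28, adjusted p = 0.0222). Ttn, the titin gene, averaged 64.4 CPM at E8.5 and 23.9 CPM at E9.5 (log2 fold change -1.43 ± 0.28, adjusted p = 0.00584). Actc1, the cardiac actin gene, was not called (212, 357 and 198 CPM at E8.5 and 152, 143 and 97.2 CPM at E9.5; log2 fold change -0.97 ± 0.40, adjusted p = 0.124). E8.5 library 2 was the highest of its group for 18 of the 21 genes, these 3 included; without it 2 genes were called lower and 2 higher. The call of Myh6 was lost without E8.5 library 2 (adjusted p = 0.0657) and without E9.5 library 1, 2 or 3 (adjusted p = 0.051, 0.0593 and 0.0624). Pln, the phospholamban gene of calcium handling, had the highest log2 value and was not called (0.100, 0.192 and 0.293 CPM at E8.5 and 0.742, 1.01 and 1.05 CPM at E9.5; log2 fold change 2.22 ± 0.82, adjusted p = 0.0551). Pln was called higher with library totals only (adjusted p = 0.0494), with only the 6 control libraries (adjusted p = 0.0134) and with limma and an estimated correlation (adjusted p = 0.0425). The count called lower was also 2 without E9.5 library 1 or 2, and 3 without E9.5 library 3.

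Of 27 endothelial genes 9 rose and 4 fell (median 0.18, and 0.11 without E8.5 library 1). Emcn, the endomucin gene of veins and capillaries, stood at 6.01, 7.62 and 7.09 CPM at E8.5 and 17, 15.3 and 16.8 CPM at E9.5 (log2 fold change 1.24 ± 0.17, adjusted p = 2.79e-05). Notch4, an endothelial Notch receptor gene, stood at 11.4, 12.7 and 12.4 CPM at E8.5 and 26.7, 26.4 and 24.1 CPM at E9.5 (log2 fold change 1.08 ± 0.15, adjusted p = 2.46e-05). Pecam1, a junction protein gene, stood at 13, 19.6 and 14.2 CPM at E8.5 and 28.2, 28.5 and 31.9 CPM at E9.5 (log2 fold change 0.91 ± 0.17, adjusted p = 0.00114). Their stages did not overlap. Kdr, the receptor gene of vascular growth factor that also marks blood and vessel precursors, fell (131, 141 and 113 CPM at E8.5 and 84.4, 89.9 and 80.6 CPM at E9.5; log2 fold change -0.59 ± 0.09, adjusted p = 0.000103), as did Etv2. The number that rose was 4 without E8.5 library 1 or E9.5 library 2 and 5 without E8.5 library 3.

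Of 28 primitive red cell and globin genes 24 were tested. Their median log2 fold change was 1.55, and 0.875 without E9.5 library 3. Of these genes 2 rose and 0 fell, where 12.2% of all genes tested rose and 12.1% fell. The summed level of 26 matched genes was 1279, 2693 and 2641 CPM at E8.5 and 6943, 6396 and 17044 CPM at E9.5, and Tspo2 had 0 reads at both stages. E9.5 library 3 was the highest of its group, and E8.5 library 1 the lowest of its group, for all 24 genes tested. Hbb-y, the embryonic epsilon-type beta-globin gene, rose (56.5, 155 and 221 CPM at E8.5 and 1252, 1159.7 and 3115 CPM at E9.5; log2 fold change 3.68 ± 0.88, adjusted p = 0.0176). Hbb-bh1, the other embryonic beta-globin gene, was not called (295, 445 and 557 CPM at E8.5 and 876, 781 and 2346 CPM at E9.5; log2 fold change 1.63 ± 0.69, adjusted p = 0.129), nor was Hba-x, the embryonic alpha-like globin gene (352, 584 and 693 CPM at E8.5 and 1363, 1282 and 3513 CPM at E9.5; log2 fold change 1.92 ± 0.71, adjusted p = 0.0875). For all 3 the stages did not overlap. Rhd, a blood group antigen gene, was the other gene called (0.100, 0.577 and 0.391 CPM at E8.5 and 2.19, 1.44 and 6.54 CPM at E9.5; log2 fold change 3.18 ± 0.99, adjusted p = 0.0375). The call of Hbb-y was lost without E8.5 library 1 or 2 (adjusted p = 0.0567 and 0.0573), and that of Rhd when any library other than E9.5 library 2 was left out (adjusted p from 0.0525 to 0.121). Rhd was not called with no filter on low counts either (adjusted p = 0.0761). The red cell regulators Gata1 (3.66, 6.66 and 8.26 CPM at E8.5 and 5.70, 5.69 and 19.3 CPM at E9.5; log2 fold change 0.72 ± 0.76, adjusted p = 0.555) and Klf1 (4.61, 7.93 and 7.13 CPM at E8.5 and 12.3, 11.3 and 31.6 CPM at E9.5; log2 fold change 1.48 ± 0.70, adjusted p = 0.167) were not called. No member was called without E8.5 library 1 or 2, 1 without E8.5 library 3, E9.5 library 1 or E9.5 library 3, and 3 without E9.5 library 2; DESeq2 called 8, all higher, Hba-x among them (adjusted p = 0.0287). Limma with an estimated correlation called 7. The test of edgeR called 4 with only the 6 control libraries or with a mean of at least 1 CPM required, and 1 with no filter on low counts. How much of the spread among libraries is blood left in the embryo was not tested. The adult alpha-globin copies Hba-a1 and Hba-a2 had nearly the same counts and cannot be told apart here, as was the case for Hbb-b2 and Hbb-bt.

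**Figure D4:**
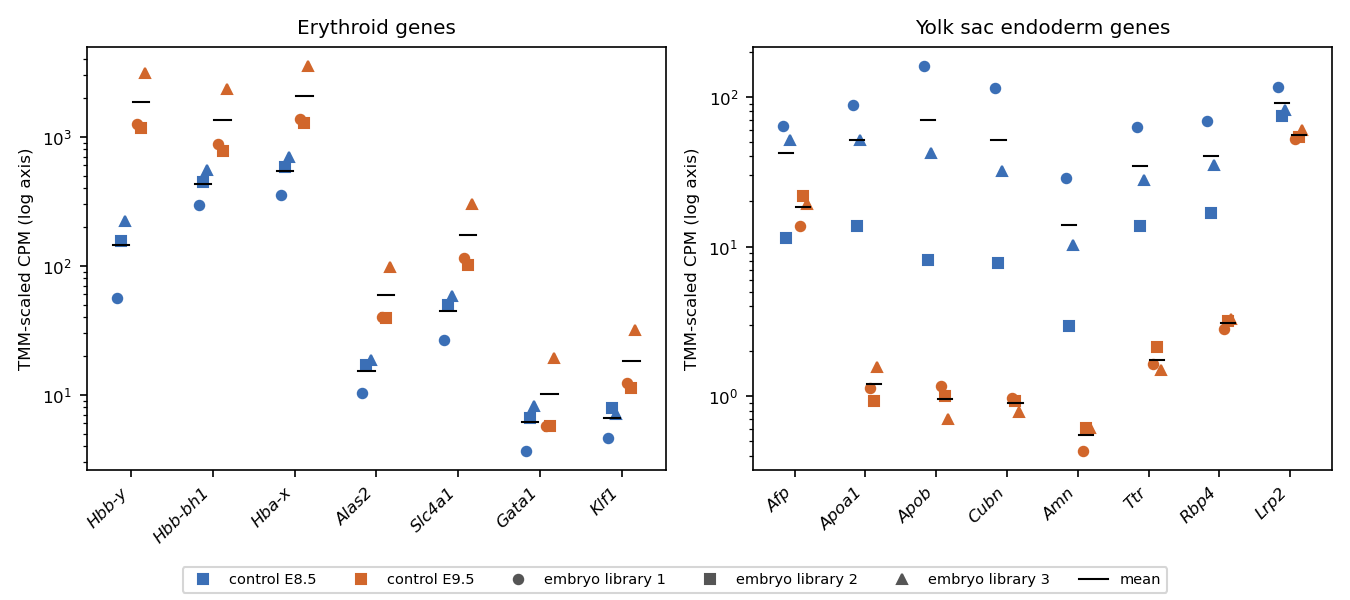
TMM-scaled CPM (log y axes) of 7 erythroid genes (left) and 8 yolk sac endoderm genes (right) in control libraries of E8.5 (blue) and E9.5 (orange), symbols for libraries 1 to 3 and bars at group means. E9.5 library 3 (triangle) is highest for the 7 erythroid genes, and E8.5 libraries are spread in the order 1, 3, 2 for the yolk sac genes.

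The promoters of Hbb-y and Hba-x are shown because they are the embryonic globin genes with an entry in the promoter table, and their upstream bases hold letters that red cell factors are known to bind. The sequences are the 250 bases before the RefSeq start on build GRCm38.p6, Hbb-y at chr7:103853208-103853457 on the minus strand and Hba-x at chr11:32276350-32276599 on the plus strand, with matches to TGATAA, a motif of the GATA factors, and to CCACCC, a motif of Krüppel-like factors, on either strand in capitals.
Hbb-y: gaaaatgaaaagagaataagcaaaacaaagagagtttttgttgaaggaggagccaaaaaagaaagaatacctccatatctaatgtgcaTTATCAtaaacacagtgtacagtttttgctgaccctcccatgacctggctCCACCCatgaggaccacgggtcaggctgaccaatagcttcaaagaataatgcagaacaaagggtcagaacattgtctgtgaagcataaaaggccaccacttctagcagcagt
Hba-x: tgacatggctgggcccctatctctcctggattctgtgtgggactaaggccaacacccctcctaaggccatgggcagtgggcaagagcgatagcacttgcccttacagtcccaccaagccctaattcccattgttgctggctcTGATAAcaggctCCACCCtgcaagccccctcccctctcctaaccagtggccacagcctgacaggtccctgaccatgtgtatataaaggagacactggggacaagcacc
Each holds 1 match to each motif. In the 18 of 28 red cell list genes that were tested and have a promoter entry, TGATAA was found in 9 (50.0%) and CCACCC in 12 (66.7%), the paired copies Hba-a1 and Hba-a2 included; over 11802 tested genes with an entry the shares were 4.69% and 38.2%, and 7.94% and 28.1% over all 32851 promoters. A match describes the letters and is not evidence of a bound site.

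Of 15 genes of definitive blood and megakaryocytes 13 were tested, of which 4 rose and 2 fell (median 1.18); 1 was called lower without E8.5 library 2 or E9.5 library 1. Pf4, a platelet factor gene, stood at 0, 0.192 and 0.195 CPM at E8.5 and 2.07, 2.34 and 8.03 CPM at E9.5 (log2 fold change 4.89 ± 0.99, adjusted p = 0.00269). Mecom, a stem cell and endothelial factor gene, stood at 8.22, 7.58 and 8.31 CPM at E8.5 and 26.5, 32.9 and 22.9 CPM at E9.5 (log2 fold change 1.77 ± 0.15, adjusted p = 9.93e-08). Kit, the stem cell factor receptor gene shared by blood, germ cells and crest, fell (51.1, 52.4 and 54.8 CPM at E8.5 and 33.8, 31.6 and 30.9 CPM at E9.5; log2 fold change -0.72 ± 0.08, adjusted p = 1.84e-06). Pf4 was highest in E9.5 library 3, the library with the most red cell RNA. Of 15 macrophage genes 6 were tested, of which 1 fell and 0 rose, where 12.1% of all genes tested fell and 12.2% rose. The summed level of the 14 matched genes was 8.80 to 12.4 CPM at E8.5, with C1qa and C1qc at 0 reads, and 7.78 to 10.4 CPM at E9.5, with Aif1 at 0 reads. Mrc1, a receptor gene of yolk sac macrophages and vessels, fell (2.81, 1.89 and 1.22 CPM at E8.5 and 0.547, 0.288 and 0.615 CPM at E9.5; log2 fold change -2.03 ± 0.40, adjusted p = 0.00093).

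Of 21 genes of gut, liver and lung endoderm 19 were tested, of which 7 fell and 2 rose (median -0.84). The 2 that rose were Nkx2-1 and Onecut1, which are also neural. E8.5 library 1, the library with the most yolk sac RNA, was the highest of its group for 14 of the 19 genes; without it 6 were called lower (median -0.66), and the part of yolk sac endoderm in this list was not tested. Krt8, a keratin gene of simple epithelia, stood at 345, 295 and 272 CPM at E8.5 and 71.9, 95.9 and 170.2 CPM at E9.5 (log2 fold change -1.43 ± 0.28, adjusted p = 0.00691). Krt18, which encodes its partner keratin, stood at 199, 171 and 178 CPM at E8.5 and 48.8, 60.1 and 100.0 CPM at E9.5 (log2 fold change -1.39 ± 0.23, adjusted p = 0.00304). For both E9.5 library 3 was highest and library 1 lowest of its group, and Krt8 was not called with only the 6 control libraries in the fit (adjusted p = 0.0687). Hhex, an early liver and endothelial factor, fell (9.67, 14.6 and 10.8 CPM at E8.5 and 5.20, 5.47 and 6.28 CPM at E9.5; log2 fold change -1.06 ± 0.18, adjusted p = 0.00031). Ihh, a signal of visceral and gut endoderm, had the lowest log2 value (7.17, 2.96 and 2.39 CPM at E8.5 and 0.742, 0.324 and 1.14 CPM at E9.5; log2 fold change -2.51 ± 0.65, adjusted p = 0.0143), and its call was lost without E9.5 library 1 or 2 (adjusted p = 0.0598 and 0.0615). Foxa2, of endoderm and floor plate, was not called (log2 fold change -0.11 ± 0.25, adjusted p = 0.796). Alb, the albumin gene of the liver bud, had 0 reads in all E8.5 libraries and 106 over the E9.5 libraries, at least 10.0-fold higher against a floor of 3 reads per library.

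Genes of yolk sac endoderm, a tissue outside the embryo proper, had the lowest median of the lists (-3.73). Of 23 listed 21 were tested, of which 13 fell and 1, Alb, rose. With limma and an estimated correlation 2 were called lower, and 8 were with no filter on low counts in edgeR. Their summed level was 924, 225 and 472 CPM at E8.5 and 123, 143 and 149 CPM at E9.5. Apob, a lipoprotein gene, stood at 159.9, 8.08 and 41.9 CPM at E8.5 and 1.17, 1.01 and 0.702 CPM at E9.5 (log2 fold change -6.16 ± 1.82, adjusted p = 0.0416). Cubn, an endocytic receptor gene, stood at 114, 7.81 and 31.9 CPM at E8.5 and 0.977, 0.936 and 0.790 CPM at E9.5 (log2 fold change -5.81 ± 1.72, adjusted p = 0.0421). Ttr, the transthyretin gene, stood at 62.4, 13.8 and 27.9 CPM at E8.5 and 1.64, 2.12 and 1.49 CPM at E9.5 (log2 fold change -4.29 ± 1.14, adjusted p = 0.0274). E8.5 library 1 was highest and library 2 lowest for all 3, while the E9.5 values lay close together. Of the 20 tested genes with reads at E8.5, library 1 was the highest and library 2 the lowest for all 20. The 3 calls were lost without E8.5 library 1 (adjusted p = 0.108 for Apob, 0.109 for Cubn and 0.0739 for Ttr), and with limma and a random block (adjusted p = 0.465, 0.392 and 0.21). Those of Apob and Cubn were also lost with only the 6 control libraries (adjusted p = 0.0658 and 0.0585) and with no filter on low counts (adjusted p = 0.0534 and 0.0544). Afp, a defining marker of this tissue, was not called (63.9, 11.3 and 51.8 CPM at E8.5 and 13.6, 21.9 and 19.3 CPM at E9.5; log2 fold change -1.20 ± 0.99, adjusted p = 0.437), and Lrp2, which the neural tube also expresses, fell (117, 74.9 and 81.2 CPM at E8.5 and 52.3, 53.8 and 60.2 CPM at E9.5; log2 fold change -0.71 ± 0.17, adjusted p = 0.0107). The number of yolk sac genes called lower was 4 without E8.5 library 1 or any single E9.5 library, 5 without E8.5 library 3, and 16 without E8.5 library 2. How much yolk sac was left on each embryo is not stated in the labels, and its part in these differences and in that of Tdh was not tested.

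Markers of other tissues from outside the embryo were low. Of 14 trophoblast genes 4 passed the filter and 0 were called by edgeR, against 1 without E8.5 library 1 and 2 with DESeq2. The summed level ran from 20.5 to 31.8 CPM at E8.5 and from 22.1 to 38.9 CPM at E9.5, most of it from Krt7, which embryonic epithelia also express (16.6, 16.9 and 22.1 CPM at E8.5 and 20.1, 19.5 and 33.3 CPM at E9.5). The defining genes Prl3d1 and Tpbpa had 0 reads at both stages. Of 6 maternal decidua genes 3 were tested and 0 called, against 1 without E8.5 library 3, 1 with summed transcripts and 1 with limma and an estimated correlation. Their summed level was at most 2.69 CPM at E8.5 and 3.99 CPM at E9.5, with 0 reads of Prl8a2 and Prl3c1.

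Of 12 pluripotency and epiblast genes 7 passed the filter, of which 4 fell and 1 rose (median -1.02). Pou5f1, the OCT4 gene, stood at 4.01, 3.62 and 2.44 CPM at E8.5 and 0.234, 0.144 and 0.615 CPM at E9.5 (log2 fold change -3.36 ± 0.51, adjusted p = 8.41e-05). Dnmt3b, the de novo DNA methyltransferase gene of the epiblast, stood at 142, 103 and 111 CPM at E8.5 and 57.7, 57.2 and 61.1 CPM at E9.5 (log2 fold change -1.02 ± 0.11, adjusted p = 8.53e-06). The stages did not overlap for either gene. Of 7 genes of DNA methylation tested, out of 8, 2 rose and 2 fell (median -0.09). Dnmt3a, another de novo enzyme gene, rose (127, 141 and 139 CPM at E8.5 and 170.4, 180.5 and 148 CPM at E9.5; log2 fold change 0.29 ± 0.08, adjusted p = 0.00961); its call was lost without E8.5 library 1 (adjusted p = 0.0699) and without E9.5 library 1 or 2 (adjusted p = 0.0515 and 0.0866), which leaves 1 called higher. Tet1, a methylcytosine oxidase gene, fell (29.7, 36.6 and 27.1 CPM at E8.5 and 20.5, 20.7 and 20.2 CPM at E9.5; log2 fold change -0.61 ± 0.12, adjusted p = 0.000699). Nr0b1, the pluripotency gene that rose, which also acts in the adrenal and gonad, had 0 reads at E8.5 and 95 at E9.5, at least 9.03-fold higher against a floor of 3 reads per library. Of 9 primordial germ cell genes 5 were tested, of which 2, Prdm1 and Alpl, fell, and 1 fell without E8.5 library 3 or E9.5 library 2, where Prdm1 lost its call (adjusted p = 0.0632 and 0.075).

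Of 11 genes for the Lin28 proteins, their targets and other factors of early growth 7 fell and 0 rose (median -0.35). Lin28a stood at 836, 721 and 696 CPM at E8.5 and 276, 229 and 263 CPM at E9.5 (log2 fold change -1.55 ± 0.09, adjusted p = 1.24e-09), a fall to about the same level in all E9.5 libraries. Lin28b, its paralogue, stood at 139, 128 and 129.7 CPM at E8.5 and 114, 109 and 103 CPM at E9.5 (log2 fold change -0.28 ± 0.08, adjusted p = 0.0157), and its call was lost without E8.5 library 1 (adjusted p = 0.054) and with library totals only (adjusted p = 0.055). The stages did not overlap for either paralogue. Trim71, a let-7 target, stood at 75.2, 54.6 and 55.9 CPM at E8.5 and 38.6, 42.1 and 36.9 CPM at E9.5 (log2 fold change -0.66 ± 0.13, adjusted p = 0.00205). Arid3b, a let-7 target as well, stood at 221, 204 and 172 CPM at E8.5 and 92.4, 92.6 and 101 CPM at E9.5 (log2 fold change -1.06 ± 0.08, adjusted p = 2.08e-08). Igf2bp1, a messenger RNA-binding protein gene, fell (log2 fold change -0.48 ± 0.07, adjusted p = 2.68e-05), while Hmga2, another let-7 target, was not called (449, 458 and 462 CPM at E8.5 and 453, 445 and 416 CPM at E9.5; log2 fold change -0.06 ± 0.06, adjusted p = 0.488).

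Of 20 imprinted genes 19 were tested, of which 6 fell and 2 rose (median -0.24, and -0.11 without E8.5 library 2). Dlk1, a Notch-like membrane protein gene of mesenchyme, rose (262, 334 and 291 CPM at E8.5 and 433, 484 and 534 CPM at E9.5; log2 fold change 0.71 ± 0.15, adjusted p = 0.00558), as did Nnat, a neuronal membrane protein gene (log2 fold change 0.70 ± 0.10, adjusted p = 0.000135). Igf2r, which encodes a receptor that clears IGF2, fell (474, 542 and 466 CPM at E8.5 and 336, 353 and 351 CPM at E9.5; log2 fold change -0.51 ± 0.06, adjusted p = 8.46e-06). Igf2, its growth factor ligand gene, was not called (1613, 1908 and 1744 CPM at E8.5 and 1276, 1400.3 and 1679 CPM at E9.5; log2 fold change -0.27 ± 0.11, adjusted p = 0.1), and was called lower without E9.5 library 3 (adjusted p = 0.0072) and with DESeq2 (adjusted p = 0.0322).

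Most glycolysis and hypoxia genes fell: 17 of 22 fell and 0 rose (median -0.52). E8.5 library 1 was the lowest of its group for 20 of the 22 genes, and E9.5 library 3 was the lowest of its group for 15. Slc2a3, a glucose transporter gene, stood at 1355, 907 and 1018 CPM at E8.5 and 272, 267 and 420.3 CPM at E9.5 (log2 fold change -1.77 ± 0.21, adjusted p = 0.000494), with E9.5 library 3 highest of its group. Slc2a1, another transporter gene, stood at 1147, 1124 and 1026 CPM at E8.5 and 514, 486 and 586 CPM at E9.5 (log2 fold change -1.06 ± 0.08, adjusted p = 3.25e-08). Every E9.5 value of both was below every E8.5 value. Hk2, a hexokinase gene of the entry step, stood at 253, 339 and 266 CPM at E8.5 and 169, 134 and 146 CPM at E9.5 (log2 fold change -0.93 ± 0.14, adjusted p = 0.000782). Pfkp, a phosphofructokinase gene, stood at 39.3, 57.6 and 53 CPM at E8.5 and 21.9, 20.2 and 22.9 CPM at E9.5 (log2 fold change -1.21 ± 0.15, adjusted p = 0.000105). The stages did not overlap for these enzymes either.

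Enzymes further down the pathway fell as well. Pgk1, the phosphoglycerate kinase gene, stood at 1503, 1812 and 1838 CPM at E8.5 and 1182, 1010.3 and 1007 CPM at E9.5 (log2 fold change -0.69 ± 0.08, adjusted p = 3.13e-06). Ldha, the lactate dehydrogenase gene, stood at 2654, 3196 and 3031 CPM at E8.5 and 2435, 2075 and 1934 CPM at E9.5 (log2 fold change -0.46 ± 0.08, adjusted p = 0.000591). Pkm, the pyruvate kinase gene, stood at 5327, 6071 and 5999 CPM at E8.5 and 4786, 4404 and 3679 CPM at E9.5 (log2 fold change -0.43 ± 0.09, adjusted p = 0.00211). For all 3 the E9.5 values lay below the E8.5 values. Slc16a3, a lactate exporter gene, fell (395, 611 and 547 CPM at E8.5 and 307, 249 and 246 CPM at E9.5; log2 fold change -0.95 ± 0.17, adjusted p = 0.00274). Hk1, the other hexokinase gene tested, was not called (37.6, 56.3 and 43 CPM at E8.5 and 53.4, 56.4 and 64.8 CPM at E9.5; log2 fold change 0.35 ± 0.12, adjusted p = 0.0549), nor was Vegfa, a hypoxia target outside glycolysis (81.7, 102 and 91.2 CPM at E8.5 and 93.3, 84.3 and 87.9 CPM at E9.5; log2 fold change -0.05 ± 0.08, adjusted p = 0.688). Hk1 was called higher without E8.5 library 2 (adjusted p = 0.00209), with library totals only (adjusted p = 0.02), with RLE size factors (adjusted p = 0.0421) with DESeq2 (adjusted p = 0.019), with limma and an estimated correlation (adjusted p = 0.0452) and with a mean of at least 1 CPM required (adjusted p = 0.039). Of 18 genes of the respiratory chain 16 were tested, of which 1, Atp5a1, an ATP synthase gene, rose (log2 fold change 0.16 ± 0.05, adjusted p = 0.032) and 0 fell (median 0.02, and from -0.03 without E8.5 library 1 to 0.05 without E8.5 library 2). The call of Atp5a1 was lost when any library other than E9.5 library 3 was left out (adjusted p from 0.0531 to 0.169). It was also lost with TMM factors from all but the 100 most abundant genes (adjusted p = 0.0551).

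The promoters of Ldha and Pgk1 are shown because they hold several copies of the core of the hypoxia response element, ACGTG, to which HIF factors are known to bind, and both genes fell. They are the 250 bases before the RefSeq start on build GRCm38.p6, Ldha at chr7:46845554-46845803 and Pgk1 at chrX:106186850-106187099, both on the plus strand, with ACGTG on either strand in capitals.
Ldha: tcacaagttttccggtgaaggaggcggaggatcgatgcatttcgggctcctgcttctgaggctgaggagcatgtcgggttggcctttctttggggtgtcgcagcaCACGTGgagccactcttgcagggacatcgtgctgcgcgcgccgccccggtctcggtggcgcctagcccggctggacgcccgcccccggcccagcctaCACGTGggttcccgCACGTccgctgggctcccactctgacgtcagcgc
Pgk1: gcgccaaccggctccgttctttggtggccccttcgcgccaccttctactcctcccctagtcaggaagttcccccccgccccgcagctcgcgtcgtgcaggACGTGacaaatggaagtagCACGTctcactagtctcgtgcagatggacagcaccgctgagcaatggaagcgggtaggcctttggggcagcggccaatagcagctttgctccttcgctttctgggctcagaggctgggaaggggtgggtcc
Ldha holds 5 matches, counting each strand where CACGTG reads the same on both, and Pgk1 holds 2. Of the 21 list genes with a promoter entry 13 (61.9%) held ACGTG, among them Hk2, Slc2a1, Slc16a3 and Egln3, against 24.5% of 11802 tested genes and 16.6% of all 32851 promoters. Of the 13 with a match 10 fell and 3, Vegfa among them, were not called. Of the 8 without a match 6 fell and 2 were not called.

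Of 17 genes of ribosome biogenesis and Myc, which drives them, 16 fell and 0 rose (median -0.40). Ncl, the nucleolin gene, stood at 2703, 2731 and 2897 CPM at E8.5 and 1834, 1716 and 1937 CPM at E9.5 (log2 fold change -0.60 ± 0.07, adjusted p = 6.84e-06). Npm1, the nucleophosmin gene, stood at 2943, 3118 and 3296 CPM at E8.5 and 2256, 2041 and 2422 CPM at E9.5 (log2 fold change -0.48 ± 0.06, adjusted p = 1.74e-05). Myc stood at 93.2, 87.3 and 102 CPM at E8.5 and 75.4, 73.6 and 71.9 CPM at E9.5 (log2 fold change -0.36 ± 0.08, adjusted p = 0.00444). For all 17 genes every E9.5 value lay below every E8.5 value, which held for 20.6% of all genes tested. Of 21 cell cycle genes 5 fell and 1 rose (median -0.12). Mki67, a proliferation marker, was the one that rose (log2 fold change 0.25 ± 0.07, adjusted p = 0.0091), and its call was lost without E8.5 library 2 (adjusted p = 0.0547). Ccne2, a cyclin gene of S phase entry, had the lowest value (40.3, 39.5 and 40.4 CPM at E8.5 and 28.9, 28 and 34.1 CPM at E9.5; log2 fold change -0.40 ± 0.10, adjusted p = 0.00496). Of the cell cycle genes 3 were called lower without E8.5 library 1 or 3 or E9.5 library 2, and 2 with library totals as the only scaling, against 8 with TMM factors from all but the 100 most abundant genes. Among 10 cell cycle inhibitors and D cyclins 3 rose and 0 fell, led by Btg2, an antiproliferative gene of neurogenic divisions (9.42, 17.9 and 12.9 CPM at E8.5 and 26.8, 31.5 and 33.6 CPM at E9.5; log2 fold change 1.18 ± 0.19, adjusted p = 0.000218).

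Of 26 genes of the extracellular matrix 7 rose and 5 fell (median 0.34). Col3a1, a fibrillar collagen gene of loose mesenchyme, stood at 70.9, 106 and 126 CPM at E8.5 and 358, 483 and 404 CPM at E9.5 (log2 fold change 2.04 ± 0.32, adjusted p = 0.00246). Col2a1, the collagen gene of notochord and cartilage precursors, stood at 187, 223 and 220.0 CPM at E8.5 and 356, 376 and 299 CPM at E9.5 (log2 fold change 0.71 ± 0.10, adjusted p = 9.32e-05). Fn1, the fibronectin gene, fell (1157, 1295 and 1032 CPM at E8.5 and 723, 781 and 756 CPM at E9.5; log2 fold change -0.62 ± 0.09, adjusted p = 0.000217), as did Lamb1, a laminin gene of basement membranes (258, 244 and 234 CPM at E8.5 and 165, 172 and 174 CPM at E9.5; log2 fold change -0.53 ± 0.07, adjusted p = 1.35e-05). Col1a1 was not called and spread from 126 to 578 CPM among E9.5 libraries (142, 204 and 222 CPM at E8.5 and 126, 394 and 578 CPM at E9.5; log2 fold change 0.95 ± 0.57, adjusted p = 0.279).

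Immediate early genes respond to signals and to handling of tissue within minutes. Of 14 stress and immediate early genes 5 rose and 0 fell (median 0.38, and 0.13 and 0.77 without E8.5 library 1 and 2). Jun stood at 55.4, 74.9 and 69.6 CPM at E8.5 and 178, 164 and 109.6 CPM at E9.5 (log2 fold change 1.17 ± 0.23, adjusted p = 0.00684). Egr1 stood at 10.7, 3.89 and 20.0 CPM at E8.5 and 63.5, 91.2 and 57.7 CPM at E9.5 (log2 fold change 2.64 ± 0.75, adjusted p = 0.0367). The call of Egr1 was lost when any library other than E8.5 library 3 was left out (adjusted p from 0.0541 to 0.106). It was also lost with only the 6 control libraries in the fit (adjusted p = 0.0547). The heat shock gene Hspa1a was not called (log2 fold change 0.36 ± 0.67, adjusted p = 0.755). The part of tissue handling in this was not tested, and the number called was 2 without E8.5 library 1 or 2 or E9.5 library 1 or 2.

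Of 15 genes of the MLL3 and MLL4 complexes and related enzymes 13 were tested, of which 3 fell and 1 rose (median -0.06, -0.14 without E8.5 library 2 and 0.00 with library totals as the only scaling). Over all genes tested 12.1% fell and 12.2% rose. Kmt2d, the MLL4 gene, stood at 220.0, 197 and 188 CPM at E8.5 and 148, 163 and 162 CPM at E9.5 (log2 fold change -0.36 ± 0.07, adjusted p = 0.000638). Kmt2c, the MLL3 gene, stood at 39.7, 36.7 and 36.5 CPM at E8.5 and 43.6, 44.8 and 39.2 CPM at E9.5 (log2 fold change 0.18 ± 0.10, adjusted p = 0.232). For Kmt2d every E9.5 value was below every E8.5 value. Ncoa6, a complex subunit gene, was the one that rose (log2 fold change 0.21 ± 0.07, adjusted p = 0.0427), and was not called when any library other than E9.5 library 3 was left out (adjusted p from 0.11 to 0.17). Its call was also lost with limma and an estimated correlation (adjusted p = 0.0565), with summed transcripts (adjusted p = 0.134) and with TMM factors from all but the 100 most abundant genes (adjusted p = 0.058). In this list 1 gene was called lower without E8.5 library 1, with library totals only, with either other filter on low counts and with only the 6 control libraries. The place of the floxed exons and of the KI change is not given in the sources used here, so that these values do not show which alleles gave the reads.

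The stage change of controls was then compared with that of KI embryos by the interaction in the same fit, KI stage change minus control stage change. The interaction uses the same control libraries, so that its values and those of the control stage change are not independent. It was called in 1024 of 15436 genes (6.63%), 524 with a higher and 500 with a lower value in KI embryos, and in 654 without E8.5 control library 3. With the first title number, which control and KI libraries of a stage share, as a block it was called in 1547 genes, 798 higher and 749 lower. Library 2 of each control stage and E8.5 KI library 2 held reads of Y-linked genes, and no E9.5 KI library did above a summed 0.408 CPM of 4 such genes. The KI stages therefore differ in sex, and its part in the interactions was not tested. Of the 22 glycolysis and hypoxia genes 20 had a called, higher interaction (median 1.03 against 0.01 for all genes), and 0 a lower one, where 3.39% of all genes had a higher and 3.24% a lower one. In KI embryos 10 of the 22 rose with stage and 0 fell, against 15.9% and 16.6% of all genes. Slc2a1 stood at 1087, 1088 and 921 CPM at E8.5 and 1112, 1131 and 1006 CPM at E9.5 in KI embryos, with overlapping stages, and the interaction was 1.12 ± 0.11, adjusted p = 1.09e-05. Pgk1 stood at 1724, 1858 and 1736 CPM at E8.5 and 2389, 2234 and 2395 CPM at E9.5 in KI embryos (interaction 1.09 ± 0.11, adjusted p = 1.09e-05). Vegfa, which was not called with stage in controls, stood at 107, 125 and 111 CPM at E8.5 and 208, 233 and 226 CPM at E9.5 in KI embryos (interaction 1.01 ± 0.11, adjusted p = 2.46e-05). Every E9.5 KI value of Pgk1 and Vegfa was above every E8.5 KI value.

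Neuronal and posterior Hox genes had lower interactions. Of 20 pan-neuronal genes 10 had a called, lower interaction and 0 a higher one (median -1.48). Tubb3 stood at 28.5, 24.4 and 22.9 CPM at E8.5 and 24.5, 25.8 and 23.1 CPM at E9.5 in KI embryos, with overlapping stages, and the interaction was -2.59 ± 0.20, adjusted p = 7.45e-06. Elavl3 stood at 2.25, 3.39 and 1.90 CPM at E8.5 and 5.63, 6.01 and 4.29 CPM at E9.5 in KI embryos (interaction -2.59 ± 0.30, adjusted p = 3.49e-05). Both genes stayed below every E9.5 control value. Of 38 Hox genes 10 had a lower interaction, all in groups 10 to 13, and 2 a higher one, among them Hoxd1. With the first title number as a block 12 were called lower, Hoxd4 (adjusted p = 0.0272) and Hoxd9 (adjusted p = 0.0339) of the middle groups as well. Hoxd13 stood at 2.39, 4.67 and 3.93 CPM at E8.5 and 2.82, 1.46 and 1.76 CPM at E9.5 in KI embryos (interaction -3.29 ± 0.40, adjusted p = 5.7e-05). Hoxd1, which fell in controls, stood at 43.2, 47.4 and 40.8 CPM at E8.5 and 27, 21.5 and 20.4 CPM at E9.5 in KI embryos (interaction 0.81 ± 0.16, adjusted p = 0.00521). Lin28a stood at 758, 731 and 672 CPM at E8.5 and 410.5, 362 and 349.6 CPM at E9.5 in KI embryos, a smaller fall than in controls (interaction 0.61 ± 0.12, adjusted p = 0.00437). The called interactions given here with a standard error remained called without any single control library. For Nhlh1 (0.0902, 0 and 0 CPM at E8.5 and 2.04, 1.75 and 3.56 CPM at E9.5 in KI embryos; interaction 1.35 ± 0.85, adjusted p = 0.378) and Neurod1 (0, 0.283 and 0 CPM at E8.5 and 4.25, 2.96 and 2.02 CPM at E9.5 in KI embryos; interaction -1.95 ± 1.36, adjusted p = 0.444) the difference between the stage changes did not pass the test.

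**Figure D5:**
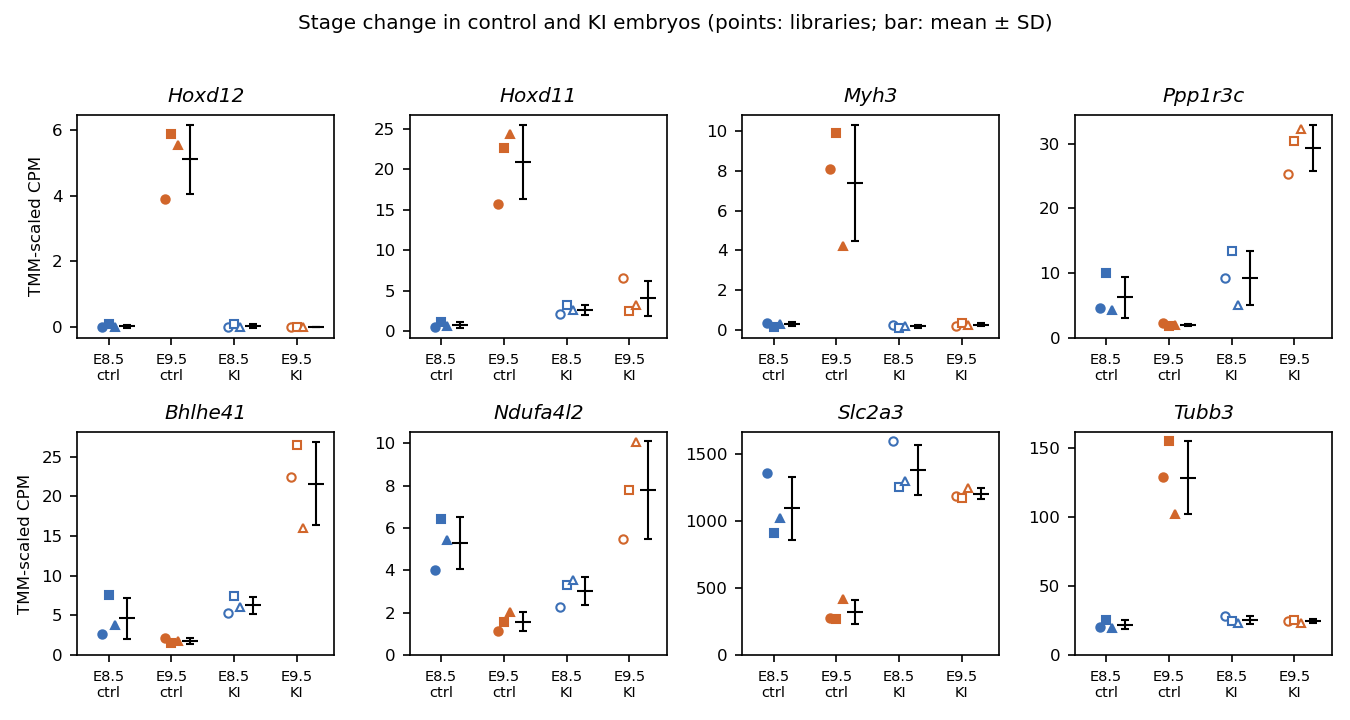
TMM-scaled CPM (linear y axes) of 8 genes in control (filled) and KI (open) libraries at E8.5 (blue) and E9.5 (orange), with means and SD (n = 3 libraries per group). Hoxd12, Hoxd11, Myh3 and Tubb3 are high in E9.5 controls alone, and Ppp1r3c, Bhlhe41 and Ndufa4l2 are highest in E9.5 KI embryos.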

How the data were processed

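The labels give polyA RNA of whole embryos as the molecule. The tables deposited by the authors give a whole-number read count and an RPKM value for each of 29082 RefSeq transcripts, per the file headers. RPKM equals the count over 1 length per transcript and 1 denominator per library, and was used for that check only. The submitters' processing notes list bcl2fastq, Bowtie2, STAR and SICER 1.1 for all samples, without roles; which of them aligned these reads, the counter, the settings and the use of strand are not given in the sources used here; reads of overlapping genes on opposite strands are therefore not separable.

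For each gene the transcript with most reads over all 37 RNA libraries was used, with names from a RefSeq table of build GRCm38 that matched 28436 transcripts (23109 entries). The other 646 transcripts kept their accession and are not named. Counts of the 12 embryo libraries entered 1 fit (edgeR 4.0.16 in R 4.3.3: filterByExpr with a minimum of 10 reads, TMM, glmQLFit, robust, glmQLFTest, Benjamini-Hochberg) without covariates, in which the 4 groups share the spread. The standard error of a log2 value is its size over the root of its F statistic. A count of 0 allows up to 3 reads; limits and intervals cover counting error only. On simulated counts the fit recovered 66 of 67 genes changed 2-fold and 29 of 67 changed 1.5-fold between control stages, and for the interaction 40 of 67 changed 2-fold. These numbers are not split by read level or by spread between libraries. Recovery for genes with few reads, or with a spread as wide as that of Apob or Hbb-y, was not tested separately.

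The samples and the 44 gene lists were chosen with earlier results of these data known. Named are the 12 called genes with the largest rise and fall (at least 5 CPM, known symbol, groups that do not overlap), the extreme and abundant members of each list and all Hox genes, the 3 highest and 3 lowest called interactions under the same conditions (5 CPM in any of the 4 groups), and other list members picked after their values were seen; some genes that the rule picks are not reported here. List medians did not change to 2 decimals with genes at 0 reads set to their bounds. Alternatives tried were DESeq2 1.42.0, limma 3.58.1 with a random block, other scalings, filters and transcript sums, and leaving out each control library. Promoters come from a RefSeq table and were searched on both strands. Samples of other kinds in the series were not analysed here.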

Additional observations from a re-analysis of the deposited data

Results flagged for a closer look

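The stage change differed between KI and control embryos, by the interaction term of the edgeR fit, in 1024 genes. Among these called genes, limited to known symbols, a mean of at least 5 CPM in any of the 4 groups and control stages that do not overlap, the 3 with the lowest difference were Hoxd12, Myh3 and Hoxd11. Hoxd12 had a fitted difference of -9.93 (adjusted p = 0.0214); it had 0 reads in all E9.5 KI libraries, so that the fitted number is no measure of size (0, 0.0943 and 0 CPM at E8.5 and 0, 0 and 0 CPM at E9.5 in KI embryos against 0, 0.0770 and 0 CPM at E8.5 and 3.91, 5.87 and 5.53 CPM at E9.5 in controls). Myh3, an embryonic myosin gene, had a difference of -4.24 (adjusted p = 0.00326), with 0.226, 0.0943 and 0.181 CPM at E8.5 and 0.163, 0.334 and 0.257 CPM at E9.5 in KI embryos. Hoxd11 had a difference of -4.04 (adjusted p = 0.000299), with 2.07, 3.25 and 2.57 CPM at E8.5 and 6.53, 2.46 and 3.22 CPM at E9.5 in KI embryos.

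The 3 of the same called genes with the highest difference all fell in controls and rose in KI embryos, but the fall in controls lost its call without E9.5 library 1, 2 or 3 for Ppp1r3c (adjusted p = 0.0501, 0.0755 and 0.0521) and without E9.5 library 2 for Bhlhe41 (adjusted p = 0.0514). Ppp1r3c, a glycogen-targeting phosphatase subunit gene, had a difference of 3.30 (adjusted p = 0.00574), with 4.56, 9.97 and 4.35 CPM at E8.5 and 2.23, 1.91 and 2.02 CPM at E9.5 in controls and 9.25, 13.4 and 5.06 CPM at E8.5 and 25.3, 30.4 and 32.2 CPM at E9.5 in KI embryos. Bhlhe41, a clock and hypoxia-responsive repressor gene, had a difference of 3.18 (adjusted p = 0.000952), with 2.61, 7.54 and 3.81 CPM at E8.5 and 2.19, 1.48 and 1.71 CPM at E9.5 in controls and 5.32, 7.45 and 6.00 CPM at E8.5 and 22.4, 26.4 and 16 CPM at E9.5 in KI embryos. Ndufa4l2, a hypoxia-induced mitochondrial protein gene, had a difference of 3.12 (adjusted p = 0.000139), with 4.01, 6.43 and 5.42 CPM at E8.5 and 1.13, 1.55 and 2.02 CPM at E9.5 in controls and 2.25, 3.30 and 3.52 CPM at E8.5 and 5.47, 7.81 and 10.1 CPM at E9.5 in KI embryos. Some genes had higher fitted differences that were not called, among them the yolk sac genes Apob (4.99, adjusted p = 0.249) and Cubn (4.31, adjusted p = 0.299). With the first title number as a block these 2 were called (adjusted p = 0.0084 for Apob and 0.0136 for Cubn).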

How the results depend on the processing

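The number of genes called between control stages ran from 3499 to 4000 under 9 other settings and from 2527 (without E9.5 library 2) to 3825 (without E9.5 library 3) with 1 library left out; it stayed within 1.5 times the 3738 reported. The interaction was called in 654 to 1071 genes with 1 control library left out. No fixed block could be fitted to the stage contrast, since the first title numbers differ between the stages; with the number as a random block (limma) 3499 genes were called, and 2 yolk sac genes lower against 13. With the first title number as a replicate block, 1547 interactions were called, of which 1013 were among the 1024. Same-numbered KI and control libraries correlated at 0.134 to 0.334 at E8.5 and at -0.013 to 0.176 at E9.5, and all 12 libraries correlated best with their own number. All pairs were above 0.1 at E8.5 but not at E9.5, where 2 control and 2 KI libraries share a number, and what the number marks is not stated in the labels. The block changed no call among the interactions given in the comparison with KI embryos as a value with a standard error. Of 41 list medians under 15 alternatives each (615 values), 567 moved by less than the spread between libraries, and 1 changed sign with the scaling: that of the MLL3 and MLL4 complex list, 0.001 with library totals only. Those of neural crest, respiratory chain and retinoic acid genes, all within 0.1 of 0, also changed sign with 1 library left out.

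The medians that moved by more depend on the filter and the library left out. With a mean of at least 1 CPM required, the medians were 2.266 for the proneural list, -1.178 for tail bud, 0.977 for muscle, -2.170 for pluripotency, -0.289 for germ cell, 0.161 for cell cycle inhibitors and -0.376 for ribosome biogenesis genes. With no filter on low counts they were 0.794 for muscle, -0.592 for gut endoderm and -1.861 for pluripotency genes. With only the 6 control libraries in the fit they were 2.260 for proneural and -1.389 for pluripotency genes. With library totals only they were -0.057 for cell cycle and -0.335 for ribosome biogenesis genes. For muscle genes the median was 1.896 with summed transcripts and 1.310 with limma. Leaving out 1 library gave medians of 2.498 to 3.141 for proneural, 1.847 to 2.240 for neuron subtype, 0.021 to 0.248 for brain regional, -0.044 to 0.130 for neural crest, -1.239 to -0.755 for tail bud, 0.855 to 1.316 for muscle, -0.659 to -0.516 for cardiac regulator, -0.526 to -0.261 for germ cell, -0.452 to -0.306 for Lin28, 0.128 to 0.300 for cell cycle inhibitor, -0.448 to -0.410 for ribosome biogenesis, -0.540 to -0.070 for left-right, -0.141 to -0.054 for MLL complex and 0.132 to 0.768 for immediate early genes. The medians of tested members can move with the filter where it changes which members are tested. For ribosome biogenesis genes all 17 were tested with and without the 1 CPM filter. The median of all genes tested moved with that filter as well, from -0.017 to 0.002. Other causes were not tested. With a mean of at least 1 CPM required, 2 pluripotency, 1 left-right and 3 cell cycle genes were called lower, against 4, 3 and 5; with no filter 3 cell cycle genes were.

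Of 169 called genes named here, 137 kept their call under every alternative and 149 under all but those that leave out a library; 0 of 218 named genes changed direction with a call. An alternative chosen after the data were seen read the list counts without E8.5 library 1, the library with the most yolk sac RNA: 4 yolk sac genes were called lower there, against 13. The depth limits genes near 0 at a stage: 3 reads, the most that a count of 0 allows, are 0.111 to 0.149 CPM in the control libraries.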
